A study of Rattus norvegicus with 30 samples.

Results

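The 9 genes described here encode enzymes of the late part of cholesterol synthesis, from the closing of squalene epoxide into lanosterol to the reduction of the last sterols before cholesterol: Lss, Cyp51, Tm7sf2, Msmo1, Nsdhl, Hsd17b7, Ebp, Sc5d and Dhcr7. They were taken by symbol from the platform annotation of a rat expression array, and every probe set of each gene was kept, which gave 15 of the 31042 probe sets that are not controls and 9 of the 14217 genes named by a single symbol. Primary hepatocytes of male Sprague Dawley rats, thawed from frozen stocks and kept under Matrigel, were dosed on day 3 of culture. The groups were chlorpromazine hydrochloride, a phenothiazine antipsychotic drug, at 20 µM for 24 h or 48 h, chlorpromazine at 0.8 µM for 24 h or 48 h, and the vehicle dimethyl sulfoxide at 1% for 24 h or 48 h, with 5 wells and 5 arrays in each of the 6 groups. The wells are labelled as independent cultures and no separate animals are named, and p-values therefore reflect how much wells differ. The comparisons ask how the genes respond to dose and to time. One vehicle array at 24 h (replicate 2) carries 2 h in its title and 24 h in its time entry and was grouped by the time entry.

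Cholesterol is built in the endoplasmic reticulum from acetyl units through mevalonate, farnesyl diphosphate and squalene. The late enzymes then close the sterol rings, strip methyl groups from lanosterol and move or reduce double bonds. When sterols in the membrane run low, the transcription factor SREBP-2, encoded by Srebf2, is released by proteolysis and raises transcription of genes throughout the pathway, usually together with the factors NF-Y and Sp1. The liver is a main site of this synthesis and also turns cholesterol into bile acids. Transcripts were measured, and neither enzymes nor sterols.

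Each array gave 1 linear signal per probe set, and arrays had been scaled alike by the authors, with median signals of 379 to 448. The highest correlation between any 2 arrays was 0.965, so no array was a copy of another. Values below are log2 signal, floored at a signal of 16, and a change is the mean of the first group minus the mean of the second, with its standard error and 5 arrays per group. A change was called where limma's Benjamini-Hochberg adjusted p, taken over 21249 probe sets, was under 0.05, and "rose" and "fell" are used only of called changes. Each gene is represented by its probe set with the highest mean signal unless another is named. All 15 probe sets passed the filter on dim signals, and 14 of them did so on every one of the 30 arrays. The exception was the second probe set of Lss, which passed it on 11. Those were all 5 arrays of each 20 µM group and 1 array at 0.8 µM for 24 h. All 6 hepatocyte markers analysed (Alb, Ttr, Apoa1, Serpina1, Fgb and Ahsg) had group means between 16.13 and 16.70, and 1 of them was called at 20 µM, Fgb at 48 h (-0.25 ± 0.09, limma adjusted p = 0.0349). With RNA from whole wells, fewer cells of a type and less RNA per cell cannot be told apart.

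The RefSeq promoter windows of all 9 genes (GRCr8, 250 bases before to 50 after the annotated start) were searched on both strands for a core of the sterol regulatory element (TCACNCCAC), for CCAAT, the motif of NF-Y, and for GGGCGG, the motif of Sp1. CCAAT was found in 7 of the 9 windows, against 37.5% of all 33469 promoter windows of the same length, and GGGCGG in 8 of 9, against 33.1%. The exceptions were Cyp51 and Dhcr7 for CCAAT and Nsdhl for GGGCGG. The TCACNCCAC core was in 0 of 9 windows and in 1.12% of all windows, which says only that these letters are not there. The windows of Cyp51, Msmo1 and Sc5d are shown because these 3 genes rose at 20 µM at both times, and that of Dhcr7 because its fall at 48 h was the largest of the 9. Capitals mark CCAAT and GGGCGG or their reverse complements, ATTGG and CCGCCC, and letters run 5′ to 3′ on the strand of the gene. In the Dhcr7 window 2 matches to GGGCGG share 1 base G and appear as a single run of capitals.
Cyp51, chr4:30991443-30991742, plus strand: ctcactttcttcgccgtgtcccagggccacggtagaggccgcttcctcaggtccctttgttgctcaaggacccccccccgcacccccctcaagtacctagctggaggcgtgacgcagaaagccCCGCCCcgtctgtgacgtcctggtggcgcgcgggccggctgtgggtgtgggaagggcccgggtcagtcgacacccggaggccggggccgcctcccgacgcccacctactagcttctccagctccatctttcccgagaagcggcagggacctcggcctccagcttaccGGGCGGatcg
Msmo1, chr16:29746863-29747162, plus strand: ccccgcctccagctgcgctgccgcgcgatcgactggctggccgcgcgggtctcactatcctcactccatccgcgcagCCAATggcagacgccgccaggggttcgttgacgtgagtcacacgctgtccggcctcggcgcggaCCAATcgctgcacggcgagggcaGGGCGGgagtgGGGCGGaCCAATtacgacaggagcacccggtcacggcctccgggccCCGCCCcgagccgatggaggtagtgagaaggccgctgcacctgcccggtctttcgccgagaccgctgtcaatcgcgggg
Sc5d, chr8:51538228-51538527, minus strand: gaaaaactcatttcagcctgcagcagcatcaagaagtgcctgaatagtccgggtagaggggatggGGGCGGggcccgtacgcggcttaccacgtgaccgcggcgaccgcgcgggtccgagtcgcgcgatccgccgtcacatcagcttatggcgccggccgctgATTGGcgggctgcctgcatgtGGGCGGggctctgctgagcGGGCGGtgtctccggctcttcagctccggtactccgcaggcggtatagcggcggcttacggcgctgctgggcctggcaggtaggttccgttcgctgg
Dhcr7, chr1:208444184-208444483, plus strand: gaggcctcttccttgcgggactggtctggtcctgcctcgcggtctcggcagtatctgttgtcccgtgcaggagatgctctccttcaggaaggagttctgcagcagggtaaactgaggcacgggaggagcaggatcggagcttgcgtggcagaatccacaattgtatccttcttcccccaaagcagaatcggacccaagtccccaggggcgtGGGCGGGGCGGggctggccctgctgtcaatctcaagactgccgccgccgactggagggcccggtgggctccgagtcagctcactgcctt
The Msmo1 window held 3 CCAAT and 3 GGGCGG matches, and the Sc5d window held 1 and 3. The Cyp51 window held 2 matches to GGGCGG, and the Dhcr7 window also held 2. Matches of letters are a description of these windows, and binding was not measured.

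At 20 µM the pathway did not move as a block. At 24 h Cyp51, Msmo1, Ebp and Sc5d rose and Hsd17b7 fell, while Lss, Tm7sf2, Nsdhl and Dhcr7 were not called. At 48 h Cyp51, Msmo1 and Sc5d rose, Nsdhl, Hsd17b7 and Dhcr7 fell, and Lss, Tm7sf2 and Ebp were not called. The 4 of 9 called higher at 24 h stand beside 12.2% of all 11513 genes tested, and the 1 of 9 called lower beside 9.92%. This 1 of 9 lies near the share of all genes. At 48 h, 3 of 9 were called higher beside 19.3% of genes, and 3 of 9 were called lower beside 14.2%. The median change of the 9 genes was 0.16 at 24 h and 0.08 at 48 h, where the median over all genes tested was 0.01 and 0.04. None of these calls at 20 µM against vehicle was lost or gained when any single array was left out. The counts rest on the brightest probe set of each gene. The other Hsd17b7 set rose at 24 h (0.34 ± 0.08), and the other Nsdhl set fell at both times. The other Lss set was called higher at both times, though it met the filter only through its 20 µM arrays. The third Sc5d set was called at neither time.

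**Figure D1:**
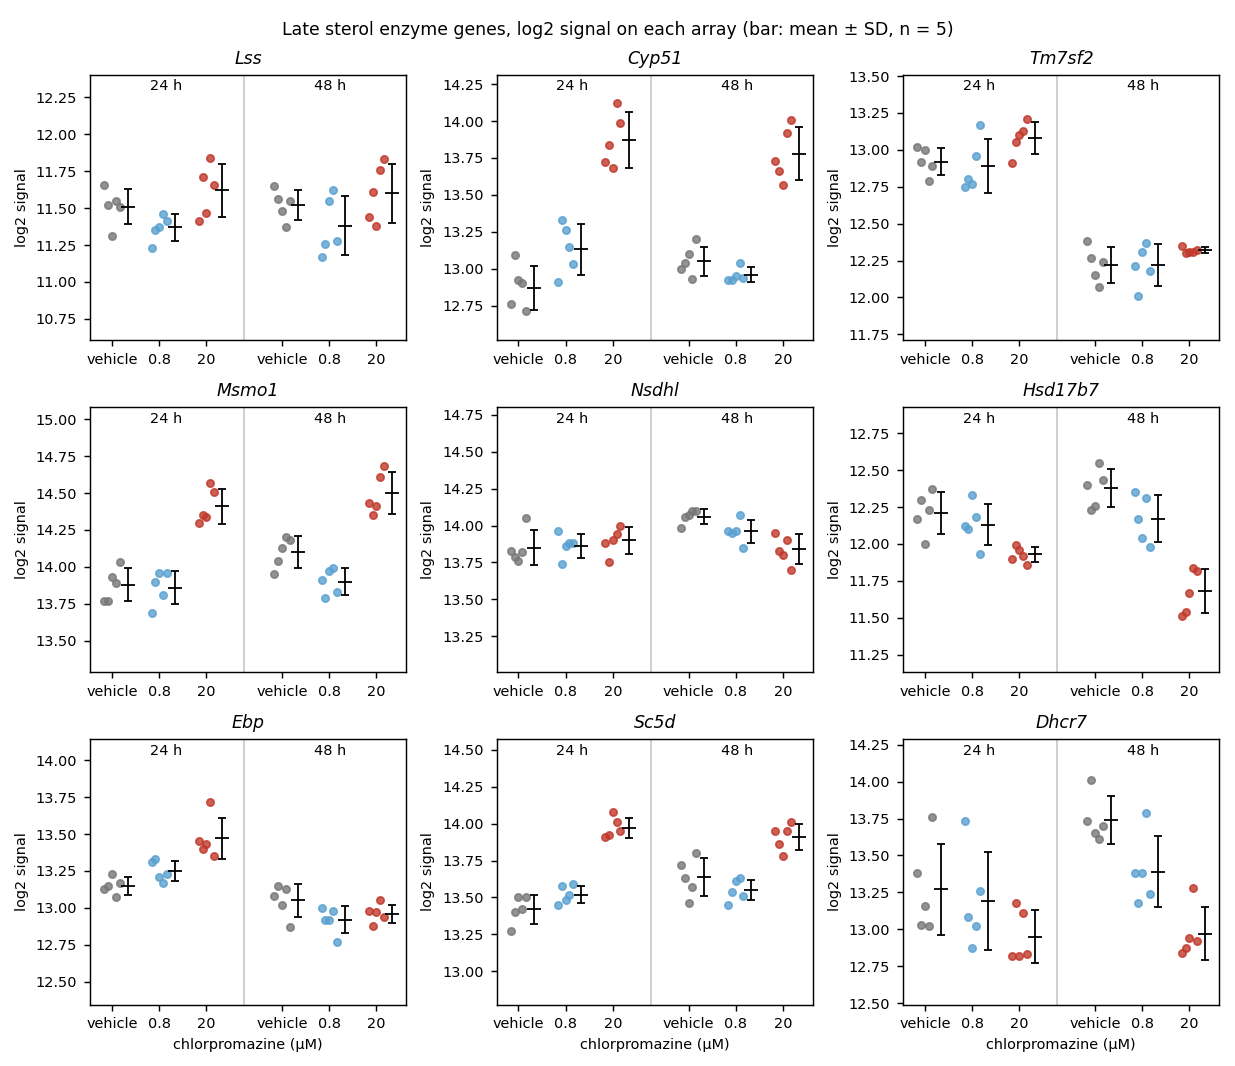
Log2 signal (vertical axis) of the 9 genes on each of the 30 arrays, by chlorpromazine dose in µM within 24 h and 48 h (horizontal axis). Each point is 1 array, bars are the mean ± SD of 5 arrays, and every panel spans the same range of log2 units. The Cyp51 and Msmo1 arrays at 20 µM lie above all others at both times, and the Hsd17b7 arrays at 20 µM lie below the vehicle arrays at both times.

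Lss, lanosterol synthase, closes the sterol ring system. Its brighter probe set read 11.41, 11.71, 11.47, 11.84 and 11.66 at 20 µM for 24 h, against 11.66, 11.52, 11.31, 11.55 and 11.51 in vehicle. The groups overlapped, and the change of 0.11 ± 0.09 was not called (limma adjusted p = 0.511). At 48 h the change was 0.08 ± 0.09 (limma adjusted p = 0.6). The second probe set read 8.95 to 9.96 at 20 µM for 24 h, against 6.18 to 6.98 in vehicle, and 9.11 to 9.64 at 20 µM for 48 h, against 6.06 to 7.84 in vehicle. At both times all 5 arrays at 20 µM lay above all 5 vehicle arrays. Its changes were 2.85 ± 0.38 at 24 h (limma adjusted p = 9.59e-07) and 2.56 ± 0.38 at 48 h (limma adjusted p = 2.25e-06). This probe set met the filter only through its 20 µM arrays, so these p-values and the lack of overlap are not separate support for a rise. Every vehicle array of this probe set was below a dim limit of 8.08 (the 40th percentile of signal, averaged over arrays and put on the log2 scale), so the size is not well set. Its mean at 20 µM was 9.35 at 24 h, against a mean 40th percentile of 8.11 on the vehicle arrays, a ratio of 2.36-fold. At 48 h these were 9.38 and 8.10, a ratio of 2.44-fold. These ratios of means come from the same arrays and set no lower bound on the change in transcript. The ending _a_at marks a probe set that can match more than one transcript form of a gene, and which forms each set reads was not examined.

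Cyp51, the lanosterol demethylase, had the largest rise among the brightest probe sets of the 9 genes. It read 13.72, 13.84, 13.68, 14.12 and 13.99 at 20 µM for 24 h, against 12.76, 13.09, 12.92, 12.90 and 12.71 in vehicle. Every treated array lay above every vehicle array, and the change was 1.00 ± 0.09 (limma adjusted p = 4.53e-10). Its arrays read 13.73, 13.66, 13.57, 13.92 and 14.01 at 20 µM for 48 h, against a lowest of 12.93, a median of 13.04 and a highest of 13.20 in vehicle. The groups again did not overlap, and the change was 0.73 ± 0.09, a 1.65-fold rise (limma adjusted p = 7.02e-08). The second probe set of Cyp51 rose by 0.63 ± 0.12 at 24 h and 0.64 ± 0.12 at 48 h (limma adjusted p = 0.000201 and 0.0001). The brighter probe set ends in _s_at, which marks sets that can also match related transcripts.

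Tm7sf2, a sterol reductase that acts after Cyp51, differed more between the times than between the doses. It read 12.91, 13.05, 13.10, 13.13 and 13.21 at 20 µM for 24 h, against a lowest of 12.79, a median of 12.92 and a highest of 13.02 in vehicle. The change of 0.16 ± 0.07 was not called (limma adjusted p = 0.165), and that at 48 h was 0.10 ± 0.07 (limma adjusted p = 0.396). Arrays of treated and vehicle wells overlapped at both times. All 15 arrays of 48 h lay below all 15 arrays of 24 h, with group means of 12.22 to 12.32 and 12.89 to 13.08.

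Msmo1, the oxidase that starts removal of the remaining methyl groups, rose at both times. It read 14.30, 14.35, 14.34, 14.57 and 14.51 at 20 µM for 24 h, against 13.77, 13.77, 13.93, 13.89 and 14.03 in vehicle. The change was 0.54 ± 0.07, a 1.45-fold rise (limma adjusted p = 5.49e-07). For 48 h the arrays read 14.43, 14.35, 14.41, 14.61 and 14.68 at 20 µM, against 13.95, 14.04, 14.13, 14.20 and 14.18 in vehicle, with a change of 0.40 ± 0.07 (limma adjusted p = 3.14e-05). At neither time did treated and vehicle arrays overlap.

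Nsdhl and Hsd17b7 complete the removal of those methyl groups, Nsdhl as a dehydrogenase that releases the carbon and Hsd17b7 as the reductase that follows. Nsdhl had a lowest array of 13.75 and a median of 13.90 at 20 µM for 24 h, against 13.83, 13.79, 13.76, 13.82 and 14.05 in vehicle, and its change of 0.05 ± 0.06 was not called (limma adjusted p = 0.663). At 48 h it read 13.95, 13.83, 13.80, 13.90 and 13.70 at 20 µM, against 13.98, 14.06, 14.07, 14.10 and 14.10 in vehicle. All treated arrays were then below all vehicle arrays, and the gene fell by 0.22 ± 0.06 on the log2 scale (limma adjusted p = 0.00261). The second probe set of Nsdhl fell at both times, with changes of -0.33 ± 0.11 at 24 h (limma adjusted p = 0.0252) and -0.66 ± 0.11 at 48 h (limma adjusted p = 9.98e-06), with no overlap of arrays. At 24 h the 2 probe sets of Nsdhl thus differed in call.

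Hsd17b7 read 11.90, 11.99, 11.96, 11.92 and 11.86 at 20 µM for 24 h, against a mean of 12.21 ± 0.14 (SD, n = 5), a median of 12.23 and a highest of 12.37 in vehicle. All treated arrays were lower, and the change was -0.29 ± 0.08 (limma adjusted p = 0.0128). At 48 h it read 11.51, 11.54, 11.67, 11.84 and 11.82 at 20 µM, against 12.40, 12.23, 12.26, 12.55 and 12.43 in vehicle, a change of -0.70 ± 0.08 or 1.63-fold lower (limma adjusted p = 4.72e-08). The dimmer Hsd17b7 probe set went the opposite way. It read 11.56, 11.68, 11.41, 11.61 and 11.61 at 20 µM for 24 h, against 11.35, 11.04, 11.42, 11.23 and 11.12 in vehicle, a rise of 0.34 ± 0.08 (limma adjusted p = 0.00199). Its change at 48 h was 0.19 ± 0.08 and was not called (limma adjusted p = 0.0877). The direction of Hsd17b7 at 20 µM therefore depends on the probe set, and which transcripts each set reads was not examined.

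Ebp, the isomerase that shifts the double bond of the second ring, rose at 24 h only in the sense of the calls. It read 13.45, 13.40, 13.43, 13.72 and 13.35 at 20 µM for 24 h, against 13.13, 13.15, 13.23, 13.07 and 13.17 in vehicle. No arrays overlapped, and the change was 0.32 ± 0.06, a 1.25-fold rise (limma adjusted p = 0.000151). Arrays of 48 h read 12.98, 12.88, 12.97, 13.05 and 12.94 at 20 µM, against 13.08, 13.15, 13.02, 13.13 and 12.87 in vehicle. These groups overlapped, and the change of -0.09 ± 0.06 was not called (limma adjusted p = 0.331).

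Sc5d, the desaturase that makes the precursor used by Dhcr7, rose at both times. It read 13.91, 13.92, 14.08, 14.01 and 13.95 at 20 µM for 24 h, against 13.27, 13.40, 13.50, 13.42 and 13.50 in vehicle, a change of 0.56 ± 0.06 or 1.47-fold (limma adjusted p = 9.58e-09). At 48 h it read 13.95, 13.86, 13.78, 13.95 and 14.01 at 20 µM, against 13.72, 13.63, 13.46, 13.57 and 13.80 in vehicle, a change of 0.27 ± 0.06 (limma adjusted p = 0.000416). The arrays did not overlap at 24 h, and at 48 h the lowest treated array lay under the highest vehicle array. A second probe set rose by 0.56 ± 0.07 at 24 h and 0.28 ± 0.07 at 48 h (limma adjusted p = 5.99e-07 and 0.00307). The third was called at neither time, with changes of -0.07 ± 0.06 and 0.07 ± 0.06 (limma adjusted p = 0.458 and 0.423).

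Dhcr7, the reductase that completes cholesterol in one branch of the pathway, was the gene with the widest spread between vehicle wells at 24 h among the brightest probe sets. It read 12.82, 13.18, 12.82, 13.11 and 12.83 at 20 µM for 24 h, against 13.38, 13.03, 13.16, 13.02 and 13.76 in vehicle. The groups overlapped, and the change of -0.32 ± 0.14 was not called (limma adjusted p = 0.12). The arrays of 48 h read 12.84, 12.87, 12.94, 13.28 and 12.92 at 20 µM, against 13.73, 14.01, 13.65, 13.61 and 13.70 in vehicle. Every treated array lay below every vehicle array, and Dhcr7 fell by 0.77 ± 0.14 on the log2 scale, 1.71-fold (limma adjusted p = 4.85e-05).

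**Figure D2:**
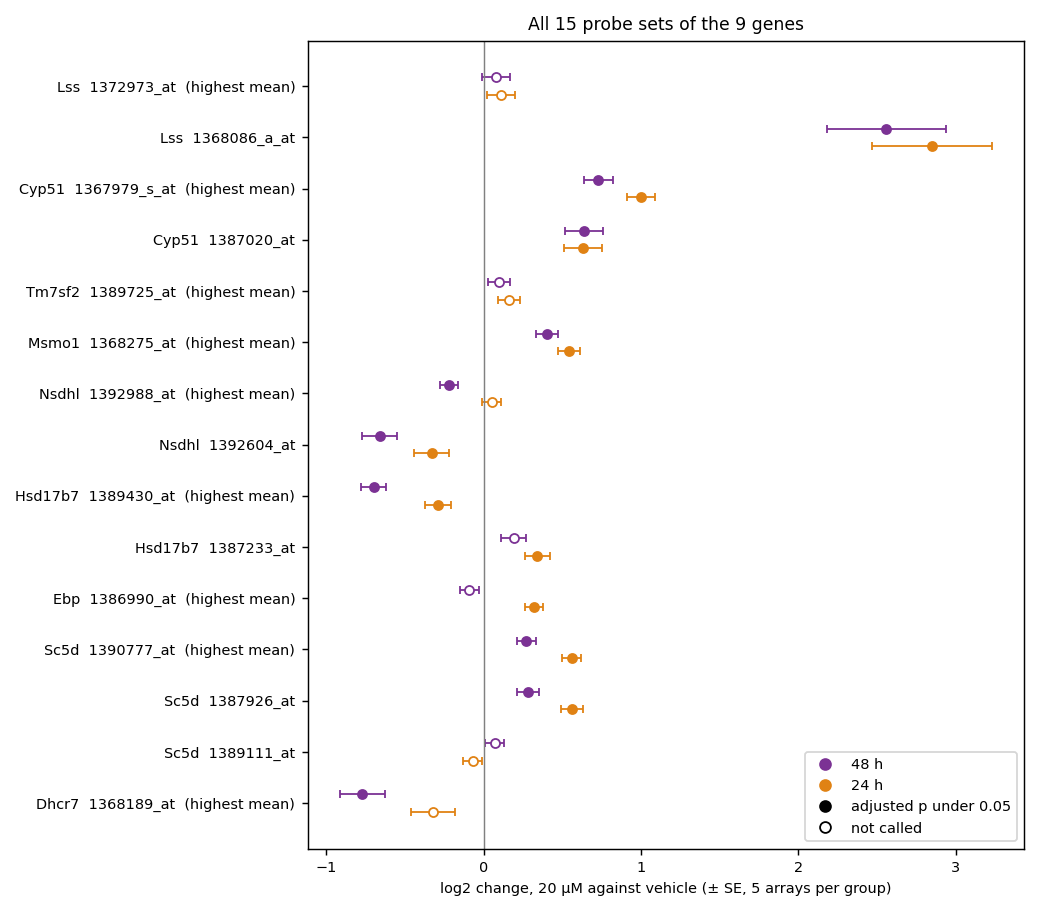
Log2 change at 20 µM against vehicle (horizontal axis, ± SE, 5 arrays per group) for all 15 probe sets of the 9 genes, in pathway order down the page, at 48 h and 24 h. Filled points have a limma adjusted p under 0.05. The second probe set of Lss (2.56 at 48 h and 2.85 at 24 h) and the 2 probe sets of Hsd17b7 show where sets of the same gene part.

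Among the 9 brightest probe sets, 4 had all treated arrays above all vehicle arrays at 24 h (Cyp51, Msmo1, Ebp and Sc5d), beside 9.27% of genes tested, and 1 had them all below (Hsd17b7), beside 7.55%. At 48 h, 2 had them all above (Cyp51 and Msmo1), beside 14.8%, and 3 had them all below (Nsdhl, Hsd17b7 and Dhcr7), beside 11.1%.

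Probe sets of the same gene were also set against each other over the 30 arrays, as a description. The 2 sets of Cyp51 had a Pearson r of 0.85, those of Nsdhl 0.63, those of Lss 0.47 and those of Hsd17b7 -0.46. Of the 3 Sc5d sets, the 2 that rose had an r of 0.91, and the third had 0.05 and 0.06 with them. The arrays share the dose and time groups, which enter these values.

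**Figure D3:**
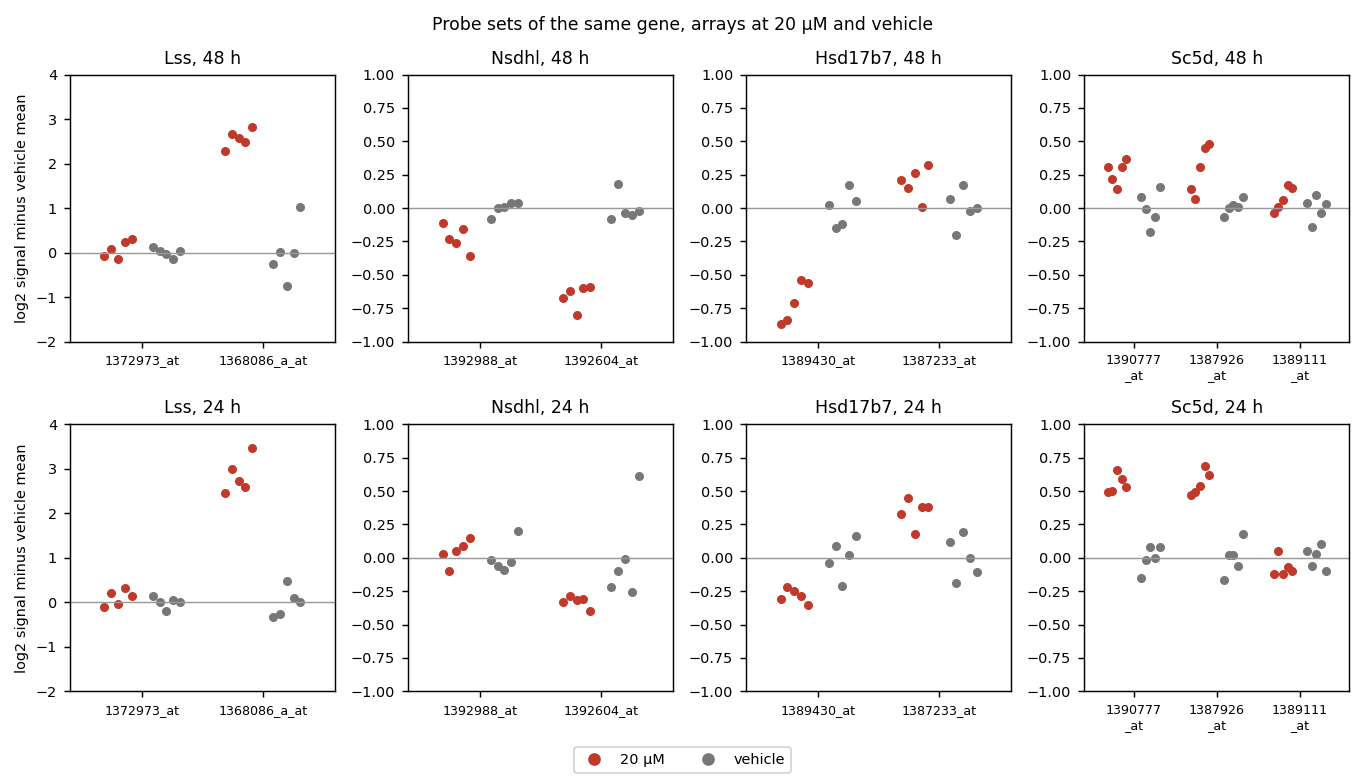
Log2 signal minus the mean of the vehicle arrays of the same time and probe set (vertical axis), for each array at 20 µM and in vehicle, at 48 h (upper row) and 24 h (lower row). Panels hold the probe sets of Lss, Nsdhl, Hsd17b7 and Sc5d, with a wider axis for Lss. The treated arrays of the brighter Hsd17b7 set (left in its panel) lie below their vehicle arrays at both times, while those of the dimmer set lie mostly above.

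At 0.8 µM no late sterol gene was called against vehicle at either time (0 of 9 at 24 h and 0 of 9 at 48 h, limma), beside 0.4% and 2.56% of all genes tested. At an unadjusted p under 0.05 in either direction, 1 of 9 genes passed at 24 h and 4 of 9 at 48 h, beside 11.7% and 15.5% of all genes tested. The 1 of 9 lies near the share of all genes. The one at 24 h was Cyp51, which read 12.91, 13.33, 13.26, 13.15 and 13.03 at 0.8 µM, against a vehicle range of 12.71 to 13.09, a change of 0.26 ± 0.09 (limma adjusted p = 0.252). The 4 at 48 h all had negative changes: Msmo1 with -0.20 ± 0.07, Dhcr7 with -0.35 ± 0.14, Hsd17b7 with -0.20 ± 0.08 and Ebp with -0.13 ± 0.06. Their limma adjusted p-values were 0.147, 0.247, 0.257 and 0.339. The other Hsd17b7 set had a change of 0.00 ± 0.08 at 48 h, and the other Cyp51 set 0.15 ± 0.12 at 24 h. Arrays at 0.8 µM overlapped those of vehicle for every one of the 9 genes at both times. The comparisons of 0.8 µM and of 20 µM share their vehicle arrays.

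The higher dose was also set directly against 0.8 µM, a comparison that shares its 20 µM arrays with the one against vehicle. At 24 h Cyp51 (0.74 ± 0.09), Msmo1 (0.55 ± 0.07), Ebp (0.22 ± 0.06) and Sc5d (0.45 ± 0.06) were higher at 20 µM, 4 of 9 beside 7.88% of genes, and 0 of 9 were lower beside 6.23%. Over all kept probe sets 1186 were higher and 1147 lower in this comparison, and 1411 and 868 when arrays were centred on their medians. One gene had a negative change with an unadjusted p under 0.05, beside 12.2% of genes, Hsd17b7 (-0.21 ± 0.08, limma adjusted p = 0.119). These counts rest on the brightest probe sets. The other Hsd17b7 set was called higher (0.36 ± 0.08, limma adjusted p = 0.00215) and the other Nsdhl set lower (-0.33 ± 0.11, limma adjusted p = 0.0423). The other Lss set was also called higher (2.30 ± 0.38), with the limit of its filter given above. The third Sc5d set was not called (-0.07 ± 0.06). The Ebp call rested on 20 µM replicate 4 and was lost without it, at a change of 0.16 (limma adjusted p = 0.0693). Calls were gained for Lss without 20 µM replicate 1 (0.30, limma adjusted p = 0.0425) and for Tm7sf2 without 0.8 µM replicate 5 (0.26, limma adjusted p = 0.0135).

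At 48 h Cyp51 (0.82 ± 0.09), Msmo1 (0.60 ± 0.07) and Sc5d (0.36 ± 0.06) were higher at 20 µM than at 0.8 µM, 3 of 9 beside 13.5% of genes. Hsd17b7 (-0.50 ± 0.08) and Dhcr7 (-0.42 ± 0.14) were lower, 2 of 9 beside 11.6%. The other Hsd17b7 set was not called (0.19 ± 0.08, limma adjusted p = 0.109), nor was the third Sc5d set (0.12 ± 0.06, limma adjusted p = 0.144). The other Nsdhl set was called lower (-0.57 ± 0.11, limma adjusted p = 0.000122) and the other Lss set higher (2.72 ± 0.38). The Dhcr7 call (limma adjusted p = 0.0265) was lost without 20 µM replicate 1, 2 or 5 (limma adjusted p = 0.0652, 0.0605 and 0.0535) and without 0.8 µM replicate 4 (0.112). Lss gained a call without 20 µM replicate 3 or 0.8 µM replicate 4 (limma adjusted p = 0.0395 and 0.0337). For Cyp51 the order of doses was 12.87, 13.13 and 13.87 at 24 h, and 13.05, 12.96 and 13.78 at 48 h, from vehicle through 0.8 µM to 20 µM. For Dhcr7 it was 13.27, 13.19 and 12.95 at 24 h, and 13.74, 13.39 and 12.97 at 48 h.

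The effect of 20 µM was then compared between the times as a contrast of its own. It was more negative at 48 h than at 24 h for 2 of 9 genes, beside 2.17% of genes tested, and more positive for 0 of 9, beside 1.52%. At an unadjusted p under 0.05, 6 of 9 had a negative difference, beside 7.83% of genes tested, and 0 of 9 a positive one, beside 8.58%. These counts rest on the brightest probe sets. Cyp51 is among the 6 (-0.27 ± 0.12), and its other set had a difference of 0.00 ± 0.17. The third Sc5d set had 0.15 ± 0.08 and the second -0.28 ± 0.10. The other sets of Nsdhl and Hsd17b7 had -0.32 ± 0.15 and -0.16 ± 0.11. For Ebp the effect was -0.09 at 48 h and 0.32 at 24 h, a difference of -0.41 ± 0.08 (limma adjusted p = 0.00441), which remained called whichever single array was left out. For Sc5d it was 0.27 at 48 h and 0.56 at 24 h, a difference of -0.29 ± 0.08 (limma adjusted p = 0.0491). The Sc5d call was lost in 16 of the 20 fits that left out 1 array of the 4 groups, with differences of -0.25 to -0.30 in those 16. It was kept without vehicle replicate 3 or 5 at 24 h, vehicle replicate 3 at 48 h or 20 µM replicate 5 at 48 h. Hsd17b7 (-0.41 ± 0.12, limma adjusted p = 0.0511) and Nsdhl (-0.27 ± 0.08, limma adjusted p = 0.064) lay just outside the threshold.

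Hsd17b7 passed it without vehicle replicate 2 or 3 at 48 h, 20 µM replicate 4 or 5 at 48 h, or vehicle replicate 5 at 24 h (limma adjusted p = 0.042, 0.0447, 0.0339, 0.0437 and 0.0271). Nsdhl passed it without 20 µM replicate 1 at 48 h, 20 µM replicate 2 at 24 h or vehicle replicate 5 at 24 h (limma adjusted p = 0.0397, 0.0287 and 0.00912). At 20 µM the means of Sc5d were 13.91 at 48 h and 13.97 at 24 h, and in vehicle they were 13.64 and 13.42. For Dhcr7 they were 12.97 at 48 h and 12.95 at 24 h under 20 µM, and 13.74 and 13.27 in vehicle. The means of Ebp were 12.96 at 48 h and 13.47 at 24 h under 20 µM, and 13.05 and 13.15 in vehicle.

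In vehicle alone, 4 of 9 genes were higher at 48 h than at 24 h, beside 5.74% of genes tested, and 1 of 9 was lower, beside 5.77%. Dhcr7 rose by 0.47 ± 0.14, Msmo1 by 0.22 ± 0.07, Nsdhl by 0.21 ± 0.06 and Sc5d by 0.22 ± 0.06, with arrays of the times overlapping for each of these 4 genes. Tm7sf2 fell by 0.70 ± 0.07 on the log2 scale (limma adjusted p = 7.71e-08), reading 12.38, 12.27, 12.15, 12.07 and 12.24 at 48 h, against a range of 12.79 to 13.02 at 24 h. No array of Tm7sf2 at 48 h reached the lowest at 24 h. The 4 rises were less firm than the fall. The other Nsdhl set was not called (0.30 ± 0.11, limma adjusted p = 0.0774). Neither the second nor the third Sc5d set was called (0.19 ± 0.07 and 0.08 ± 0.06, limma adjusted p = 0.112 and 0.518). The Msmo1 call (limma adjusted p = 0.0378) was lost without replicate 1, 2 or 4 at 24 h or replicate 3, 4 or 5 at 48 h (limma adjusted p of 0.0611 to 0.11). The Dhcr7 call (0.0275) was lost without replicate 2, 3 or 4 at 24 h or replicate 2 at 48 h (limma adjusted p of 0.0682 to 0.0921). The Sc5d call (0.0115) was lost without replicate 1 at 24 h or 5 at 48 h (limma adjusted p = 0.0523 and 0.0503), and the Nsdhl call (0.0142) without replicate 3 at 24 h (0.0506).

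Across the 6 groups, the 20 µM groups of Cyp51 held the highest means, 13.87 ± 0.19 at 24 h and 13.78 ± 0.18 at 48 h (SD, n = 5), and only the step down to the next group, 0.8 µM at 24 h with 13.13 ± 0.17, left no overlap of arrays between neighbours in the order. Msmo1 had the same gap under its 20 µM groups (14.50 ± 0.14 at 48 h and 14.41 ± 0.12 at 24 h), above vehicle at 48 h with 14.10 ± 0.11. For Ebp the gap lay between 20 µM at 24 h (13.47 ± 0.14) and 0.8 µM at 24 h (13.25 ± 0.07), and for Hsd17b7 between 20 µM at 48 h, the lowest group (11.68 ± 0.15), and 20 µM at 24 h (11.93 ± 0.05). For Lss, Nsdhl, Sc5d and Dhcr7, neighbouring groups in the order overlapped throughout.

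The 9 genes were compared with each other over the 30 arrays as a description of how alike their patterns were. The 36 pairs had Pearson r between -0.68 and 0.89, with a median of -0.03 and 17 above 0. Cyp51, Msmo1 and Sc5d formed the closest trio, with r of 0.89 for Cyp51 and Sc5d, 0.89 for Msmo1 and Sc5d, and 0.88 for Cyp51 and Msmo1. Tm7sf2 and Ebp had an r of 0.78, Nsdhl and Dhcr7 0.67, and Hsd17b7 and Dhcr7 0.64. The most opposed were Cyp51 and Hsd17b7, with -0.68. After the 6 group means were removed, the pairs ran from -0.30 to 0.54 with a median of 0.18, and 32 of 36 were above 0. Probe sets of an array share its scaling and RNA, which enter both sets of values.

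**Figure D4:**
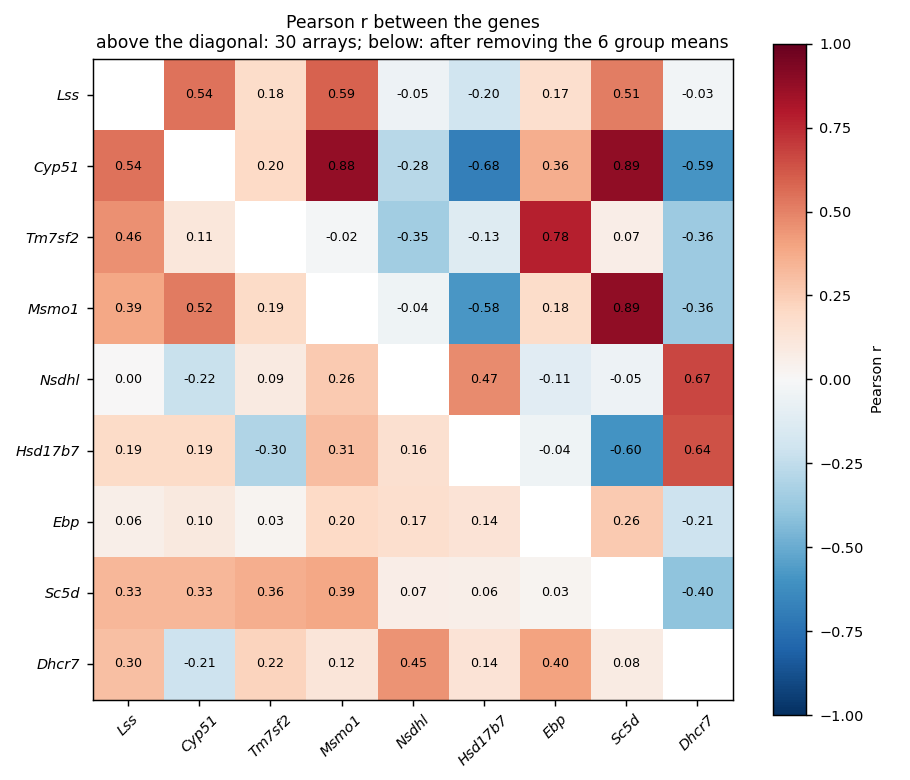
Pearson r between the brightest probe sets of the 9 genes, with the 30 arrays above the diagonal and the same arrays after removal of the 6 group means below it. Red is positive and blue negative. The trio of Cyp51, Msmo1 and Sc5d stands out above the diagonal with r of 0.88 to 0.89, and its values below the diagonal are 0.33 to 0.52.

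By the same measure, the 5 other named genes most like Cyp51 were Rnf115 (r of 0.93), Idi1 (0.93), Acat2 (0.93), Ncl (0.92) and Ddx39a (0.92). Idi1 and Acat2 act earlier in sterol synthesis. The 5 most like Dhcr7 were Rab7a (0.94), Fasn (0.93), Agmat (0.89), Crp (0.89) and Cyp7a1 (0.88). After removal of the group means, r with Cyp51 was 0.84 for Idi1, 0.60 for Acat2, 0.41 for Rnf115, 0.37 for Ncl and 0.21 for Ddx39a. With Dhcr7 it was 0.86 for Rab7a, 0.86 for Fasn, 0.79 for Cyp7a1, 0.75 for Crp and 0.71 for Agmat. Points share the arrays and groups, and the likeness says nothing of shared control.

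Other sterol genes are read beside the shares of all genes called higher and lower at 20 µM, 12.2% and 9.92% at 24 h and 19.3% and 14.2% at 48 h, and beside the medians over all genes of 0.01 and 0.04. Of 9 genes of the mevalonate arm that were tested, 5 rose and 0 fell at 24 h (0 had a negative change at an unadjusted p under 0.05 by limma), with a median change of 0.28, and 5 rose and 1 fell at 48 h, with a median of 0.26. Acat2, which joins acetyl units, rose by 0.74 ± 0.07 at 24 h and 0.49 ± 0.07 at 48 h. Idi1, the isomerase of isopentenyl diphosphate, rose by 0.57 ± 0.08 and 0.26 ± 0.08, its 48 h call being lost without 20 µM replicate 5 (0.21, limma adjusted p = 0.0533). A second Idi1 probe set rose at 24 h (0.33 ± 0.11) and was not called at 48 h (0.12 ± 0.11, limma adjusted p = 0.466). Fdps, farnesyl diphosphate synthase, rose by 0.50 ± 0.07 and 0.39 ± 0.07, and Sqle, squalene epoxidase, by 0.42 ± 0.08 at each time. Mvd, which decarboxylates mevalonate diphosphate, rose at 24 h alone by the calls (0.28 ± 0.09, limma adjusted p = 0.0352), and that call was lost in 7 of the 10 fits that left out 1 array. Pmvk, phosphomevalonate kinase, rose at 48 h (0.26 ± 0.07). Fdft1, squalene synthase, fell by 0.27 ± 0.07 on the log2 scale at 48 h, where its change at 24 h was 0.12 ± 0.07 (called without vehicle replicate 5, at 0.20 and a limma adjusted p of 0.0359), and the difference of the 2 effects was -0.39 ± 0.10 (limma adjusted p = 0.0235). In a second Fdft1 probe set neither was called, with -0.23 ± 0.09 at 48 h and a difference of -0.25 ± 0.13 (limma adjusted p = 0.0763 and 0.418).

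Of 9 partners and relatives of the late enzymes, 3 rose and 2 fell at 24 h, and 2 rose and 1 fell at 48 h, with medians of -0.04 and -0.07. The 2 of 9 and 1 of 9 at 48 h lie near the shares of all genes. Cyb5a, a cytochrome b5 that feeds electrons to Sc5d and Msmo1, rose by 0.26 ± 0.07 at 24 h and 0.19 ± 0.07 at 48 h. Cyb5b, another cytochrome b5 gene, rose by 0.46 ± 0.06 and 0.22 ± 0.06. The Cyb5a call at 48 h (limma adjusted p = 0.0343) was lost in 5 of the 10 fits that left out 1 array. A second probe set of Cyb5b fell by 0.31 ± 0.07 on the log2 scale at 48 h. The cytochrome b5 reductase Cyb5r3 fell at 24 h (-0.20 ± 0.07, limma adjusted p = 0.0271), a call lost in 4 of 10 such fits. Erg28, a scaffold of the demethylation enzymes in yeast, rose at 24 h (0.39 ± 0.04) and had a change of -0.07 ± 0.04 at 48 h, and the difference of the effects was -0.46 ± 0.06 (limma adjusted p = 1.46e-05). Its mean was 14.15 at 48 h and 14.22 at 24 h under 20 µM, and 14.23 and 13.83 in vehicle. Faxdc2, a relative of Msmo1 and Sc5d, fell, with changes of -0.94 ± 0.15 at 48 h and -0.44 ± 0.15 at 24 h, the second call being lost in 7 of 10 such fits. Lbr, which can act in place of Tm7sf2, was called at neither time (-0.04 ± 0.13 at 24 h and 0.07 ± 0.13 at 48 h).

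Of 10 genes of sterol sensing and uptake, 2 rose and 2 fell at 24 h, and 3 rose and 3 fell at 48 h, with medians of 0.06 and 0.03. The shares of all genes called higher and lower were 12.2% and 9.92% at 24 h and 19.3% and 14.2% at 48 h. Insig1, which holds SREBPs in the endoplasmic reticulum and is itself one of their targets, rose by 0.27 ± 0.05 at 24 h and 0.26 ± 0.05 at 48 h. Insig2, its relative, fell, with changes of -0.59 ± 0.10 and -1.10 ± 0.10, and so did Srebf1, with changes of -0.40 ± 0.11 and -0.66 ± 0.11. The Srebf1 call at 24 h was lost without vehicle replicate 5 (-0.33, limma adjusted p = 0.0501). A second Srebf1 probe set was called at neither time, with -0.22 ± 0.14 at 24 h and -0.29 ± 0.14 at 48 h (limma adjusted p = 0.324 and 0.135). Srebf2 itself was called at neither time (0.07 ± 0.09 and 0.10 ± 0.09). Npc2, which carries cholesterol out of lysosomes, rose by 0.31 ± 0.06 at 24 h and 0.91 ± 0.06 at 48 h. Mbtps2, a protease that releases SREBPs, rose at 48 h (0.42 ± 0.07), and Tmem97, a sterol-binding membrane protein, fell then by 0.33 ± 0.09 on the log2 scale.

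Of 8 genes for the fates of sterol that were tested, 0 rose and 5 fell at each time, with medians of -0.33 at 24 h and -0.33 at 48 h, beside the shares and medians of all genes given above, and none had a positive change with an unadjusted p under 0.05 by limma. Cyp7a1, which controls the entry of cholesterol into bile acids, fell, with changes of -1.50 ± 0.25 at 24 h and -2.77 ± 0.25 at 48 h. Its mean was 8.99 ± 0.33 at 20 µM and 11.76 ± 0.26 in vehicle at 48 h (SD, n = 5). Changes at 24 h and 48 h were -0.73 ± 0.10 and -1.07 ± 0.10 for Abcg1, a sterol exporter, and -0.53 ± 0.18 and -0.77 ± 0.18 for Abcg5, a subunit of the biliary sterol pump, whose 24 h call (limma adjusted p = 0.0333) was lost in 7 of the 10 fits that left out 1 array. They were -0.34 ± 0.06 and -0.41 ± 0.06 for Cyp27a1, a sterol hydroxylase, and -0.31 ± 0.05 and -0.25 ± 0.05 for Lipa, the lysosomal acid lipase.

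**Figure D5:**
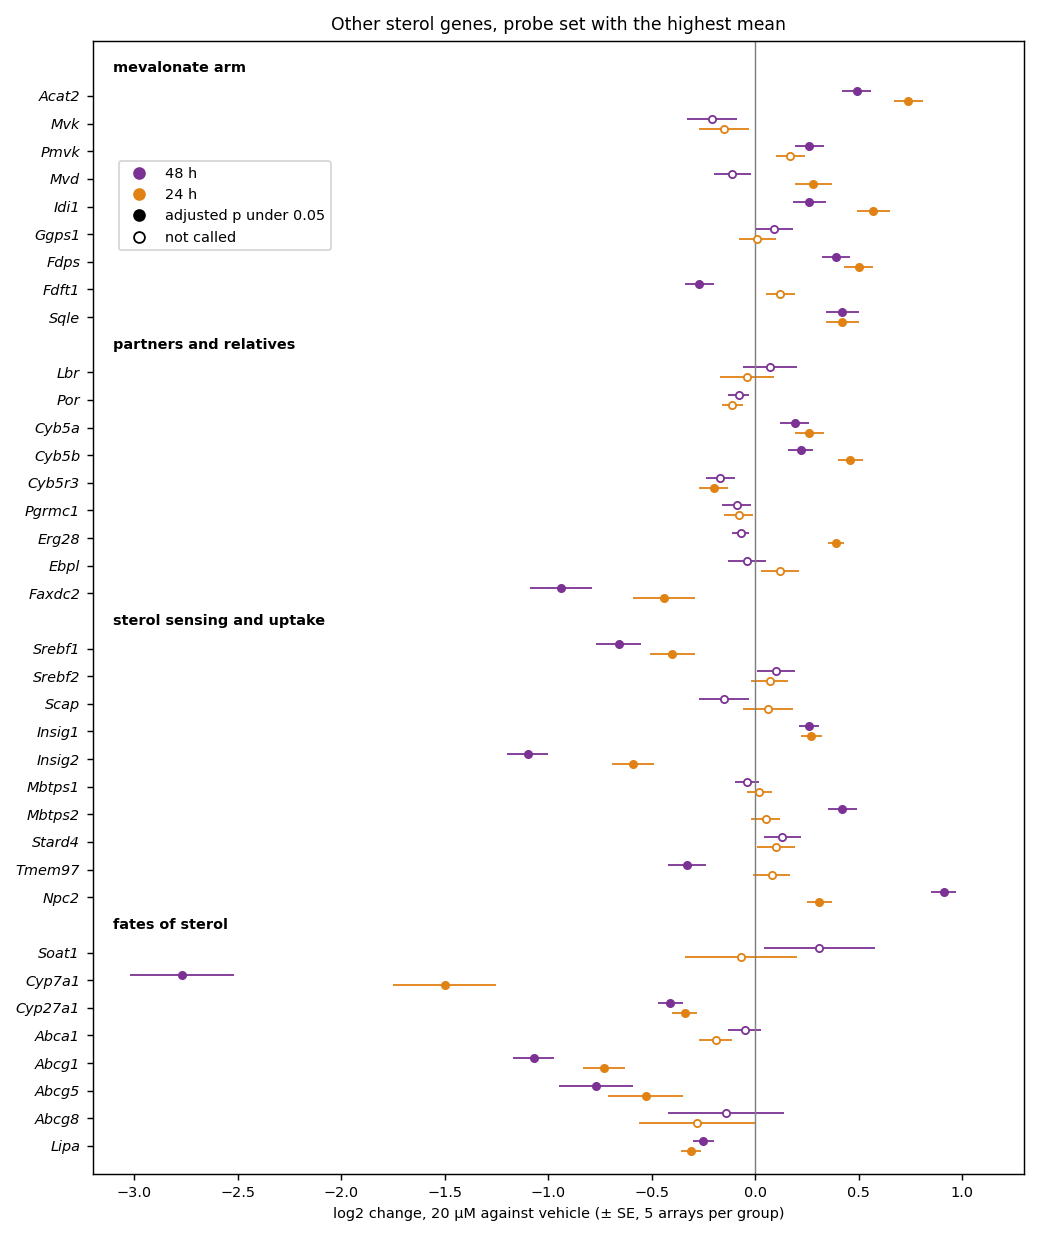
Log2 change at 20 µM against vehicle (horizontal axis, ± SE, 5 arrays per group) at 48 h and 24 h for the other sterol genes tested, by group down the page. Filled points have a limma adjusted p under 0.05. Cyp7a1 lies farthest left (-2.77 at 48 h and -1.50 at 24 h), and Acat2 (0.49 at 48 h and 0.74 at 24 h) is among the rises of the mevalonate arm.

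Markers of other liver cells were read beside these results. Of 5 Kupffer cell markers, Cd68 rose at 20 µM at 48 h by 1.44 ± 0.13, with a mean of 11.24 ± 0.19 against 9.80 ± 0.19 in vehicle, and Cd163, Clec4f, Csf1r and Ptprc were called at neither time. The summed signal of the 5 was 2966 to 4066 at 20 µM and 2157 to 2713 in vehicle at 48 h, and 3519 to 4094 and 3200 to 4346 at 24 h. Cd68 weighs most in the sum at 20 µM and 48 h, so the sum does not show a rise of the 5 as a set. Their median change at 20 µM was -0.22 at 48 h and 0.23 at 24 h, beside 0.04 and 0.01 over all genes. Of 5 stellate, 3 endothelial and 2 cholangiocyte markers that passed the filter, 1 was called at 20 µM, Krt19 at 24 h (-1.28 ± 0.35), whose mean was then under the dim limit. The cholangiocyte marker Krt7 was above the dim limit on 0 of 30 arrays and the endothelial marker Vwf on 1, while Epcam had group means of 13.12 to 13.56. The summed stellate signal was 3249 to 3889 at 20 µM and 3303 to 4104 in vehicle at 48 h, and 2717 to 3689 and 3450 to 3789 at 24 h. The part of these cells in the sterol results was not tested.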

How the data were processed

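RNA from each of 30 wells was measured on its own rat array. The deposited values are linear signal intensities per probe set that the authors made with MAS5, per the submitters' processing notes (version not given in the sources used here). Between its 2nd and 98th percentiles every array averaged 1500. Of 31099 probe sets 57 were controls, 20826 carried 1 symbol, 436 several and 9780 none here. Symbols come from the platform annotation, updated by Entrez identifier.

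Signals were floored at 16 (3.86% of values were lower) and log2 transformed. Probe sets above the 40th percentile of their array on at least 5 arrays were kept (21249). With limma 3.58.1 in R 4.3.3, 6 group means were fitted over 30 arrays, the eBayes spread following a trend, and p-values were adjusted by Benjamini-Hochberg across kept probe sets. Of a gene's kept probe sets, that with the highest mean stands for the gene. The members and gene lists were chosen with earlier results of these data known. Named genes were all members, list genes called at 20 µM at either time, with Lbr, Srebf2, Sqle and Insig1 whatever their call, and the 5 most like the largest rise and fall. Some genes of these lists are not reported here. The number of arrays limits precision. The procedure was tested on simulated data. Alternatives covered the floor, filter, normalization, spread model, array weights, arrays in the fit, array sets, probe sets, threshold and single arrays.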

Additional observations from a re-analysis of the deposited data

Results flagged for a closer look

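Among 90 groups of 5 arrays, 7 held an array that stood far from the other 4 by Dixon's ratio, where chance flags about 1 in 20 groups. For Nsdhl, vehicle replicate 5 at 24 h read 14.05 where the others read 13.76 to 13.83, and the same array read 12.36 in the second Nsdhl probe set, where the others read 11.49 to 11.74. That second set also had vehicle replicate 2 at 48 h at 12.23, against 11.97 to 12.03. For Ebp, 20 µM replicate 4 at 24 h read 13.72, against 13.35 to 13.45, and without it the change at 20 µM was 0.26 (limma adjusted p = 0.000907). For Dhcr7, 20 µM replicate 4 at 48 h read 13.28, against 12.84 to 12.94, and without it the change was -0.85 (limma adjusted p = 2.44e-05). For Cyp51, 0.8 µM replicate 4 at 48 h read 13.04, against 12.92 to 12.95, and for the third Sc5d probe set 20 µM replicate 2 at 24 h read 12.66, against 12.49 to 12.54.

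The effect of 20 µM differed between the times by a test of the difference for Ebp, with -0.09 at 48 h and 0.32 at 24 h (difference -0.41, limma adjusted p = 0.00441), and for Sc5d, with 0.27 at 48 h and 0.56 at 24 h (difference -0.29, limma adjusted p = 0.0491). The second probe set of Sc5d gave -0.28 (limma adjusted p = 0.179) and the third gave 0.15 (limma adjusted p = 0.471).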

How the results depend on the processing

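The labels give no replicate numbers, so wells could not be paired by a labelled number. Replicates are numbered here by array order, so the replicate number is also the number of the set of 6 consecutive arrays. A block was fitted on these sets. Of the comparisons of each setting with the reported value, 3117 were taken as the same, 105 lost a call, 35 gained one, 40 turned direction and 35 counts moved. A gene was the same where it kept direction and side of the threshold, and a count where it differed by at most 1.5 times. Counts that moved differed by more, or went to or from 0. The counts of the 9 genes at 20 µM against vehicle were 4 higher at 24 h and 3 higher and 3 lower at 48 h under every setting run, and the 1 lower at 24 h became 0 at an adjusted p under 0.01. All these settings used the same probe set of each gene. This block of array sets gave 1 lower at 0.8 µM and 48 h (Msmo1, limma adjusted p = 0.0397), and each set holds 1 array per group, so a single set allows no test of its own. At an adjusted p under 0.01 the genes lower at 20 than at 0.8 µM at 48 h were 1, and leaving out single arrays gave 1 to 2. Genes with a more negative effect at 48 h than at 24 h were 1 without the filter, with arrays centred, without the trend or at an adjusted p under 0.01, and 4 with quantile normalization, array weights or 1 probe set per gene, with 1 to 4 on leaving out single arrays. Genes higher in vehicle at 48 h were 2 without the trend or with only the arrays of the groups compared, 0 at an adjusted p under 0.01 and 2 to 4 on leaving out single arrays.

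Uncalled values near 0 turned. Array weights gave 0.020 for Msmo1 at 0.8 µM and 24 h and 0.007 for Tm7sf2 at 0.8 µM and 48 h. On leaving out single arrays, values at 0.8 µM and 24 h ran from -0.105 to 0.001 for Tm7sf2, -0.042 to 0.028 for Msmo1, -0.011 to 0.064 for Nsdhl and -0.214 to 0.044 for Dhcr7, and Tm7sf2 at 48 h from -0.044 to 0.047. Lbr at 20 µM and 24 h ran from -0.107 to 0.042, and Lss from -0.084 to 0.029 for the difference between times and from -0.036 to 0.050 in vehicle.

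Other probe sets turned more. That of Hsd17b7 gave 0.345 at 24 h and 0.186 at 48 h for 20 µM against vehicle, 0.360 and 0.185 against 0.8 µM, 0.000 for 0.8 µM at 48 h and -0.076 in vehicle over time. That of Nsdhl gave -0.333 at 20 µM and 24 h, -0.325 against 0.8 µM and -0.008 at 0.8 µM. The third of Sc5d gave -0.074, -0.066 and -0.008 in the same comparisons and 0.145 for the difference between times, where that of Cyp51 gave 0.003. That of Lss gave 0.550 at 0.8 µM and 24 h. The cause was not tested.

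Over all kept probe sets, 27 were higher and 33 lower at 0.8 µM at 24 h, against 4 and 2 with only the arrays of the groups compared and 46 and 49 with 1 probe set per gene. At 48 h 172 were higher and 210 lower, against 51 and 82 at an adjusted p under 0.01. Dim signals limit the second Lss probe set.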
